A study of Mus musculus with 15 samples.

Results

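The nuclear-encoded genes of the mitochondrial respiratory chain were followed in 5 tissues of male C57BL/6 mice on 3 diets. Members were the loci of the deposited table with a gene name that starts with Ndufa, Ndufb, Ndufc, Ndufs, Ndufv, Uqcr, Cox4 to Cox8 or Atp5, or that is Sdha, Sdhb, Sdhc or Sdhd. This gave 93 loci for 92 genes, of 23589 loci with a gene name and 33603 loci in all. They comprised 38 genes of complex I, 4 of complex II, 8 of complex III, 18 of complex IV and 15 of complex V, the ATP synthase, together 83 subunits. The names also took in 7 assembly factors of complex I (Ndufaf1 to Ndufaf7), Atp5sl and Atp5s, which has a locus on each strand. Ndufa7, Ndufb2 and Cox6b2 each share a locus with another gene (Kank3, Adck2 and Fam71e2), so that their reads cannot be told apart from those of the neighbour.

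Mice of the AL group ate ad libitum and were 5 months of age. Mice of the DR group received 60% of the AL intake, a restriction of 40%, for 1 month from 4 months of age and were also 5 months of age. Mice of the DR-AL group had 1 month of DR and then 2 months of AL feeding and were 7 months of age, so diet and age cannot be told apart in this group. For each of hypothalamus, hippocampus, liver, colon (the mucosa) and epididymal fat on each diet, the RNA of 5 mice was combined. Such a pool gave 1 library, with no replicate, and every test between 2 libraries below compares those libraries and not the diets.

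The respiratory chain of the inner mitochondrial membrane passes electrons from NADH (complex I) and succinate (complex II) through coenzyme Q to complex III, and from there by cytochrome c to complex IV, which reduces oxygen. Complexes I, III and IV pump protons, and complex V uses the returning protons to make ATP. Most subunits are encoded in the nucleus, translated in the cytosol and imported, and several subunits of complex IV exist as isoforms of heart and skeletal muscle, lung or testis beside the common form. The subunits encoded in mitochondrial DNA were not analysed here.

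The libraries held 21767088 to 40500130 counts on loci with a gene name. The summed markers of liver, colon epithelium, adipocytes, hypothalamus and hippocampus were highest in the tissue so labelled, although those of the hippocampus (1063 CPM in DR, where CPM is counts per 1000000 counts on named genes) were not far above the colon (899 CPM in DR). Several sets of markers of other tissues differed between the libraries of a tissue. In fat, 9 markers of male germ cells summed to 3.66 CPM (AL), 605 (DR) and 3104 (DR-AL), and 8 markers of the epididymis to 847, 3064 and 4834. The 8 adipocyte markers themselves summed to 52006, 41403 and 31603 CPM in these libraries, and 5 smooth muscle markers to 1094, 3310 and 1005 CPM. Liver markers in fat went the other way, with a sum of 14791 CPM (AL), 5301 (DR) and 4120 (DR-AL) over a list of 10 genes, of which Alb was listed at 0 in all 15 libraries, the liver included. Most of what was left of this sum in DR and DR-AL was Cyp2e1, which had 119637 and 112244 counts there, and Ahsg, for example, went from 33766 counts in AL to 222 and 41. Skeletal muscle markers (8 genes) summed to 40.1, 207 and 304 CPM in the liver and to 115, 641 and 124 CPM in fat. The part of these other cells in the results on fat and liver was not tested, and in bulk tissue fewer cells of a type and less RNA per cell cannot be told apart.

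Together the members took between 0.906% (hypothalamus AL) and 1.90% (colon DR) of the counts. In the liver the share was 1.56% (AL), 1.84% (DR) and 1.86% (DR-AL). In fat it was 1.43% (AL), 1.79% (DR) and 1.10% (DR-AL). The 3 colon libraries lay between 1.83% and 1.90%, the 3 hypothalamus libraries between 0.906% and 1.01%, and the 3 hippocampus libraries between 1.01% and 1.05%. The libraries thus differed more by diet in liver and fat than in colon and brain.

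**Figure D1:**
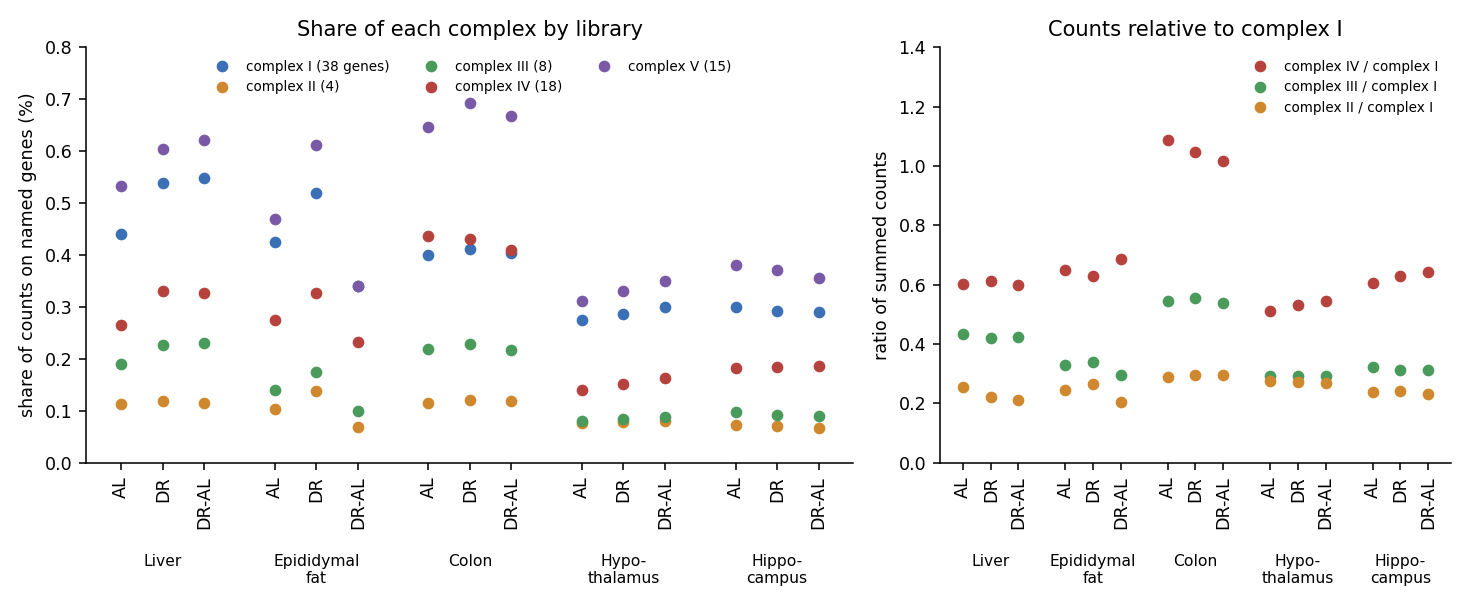
The left panel plots, for each of the 15 libraries (horizontal axis, by tissue and diet), the share of counts on named genes taken by each complex (percent, 1 point per complex). The right panel plots the ratio of the summed counts of complexes II, III and IV to those of complex I, with Ndufa4 counted in complex I. The colon libraries stand above all others for each of the 3 (1.02 to 1.09 for complex IV).

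Levels were compared between genes per transcript length, with the deposited FPKM, and only within a library. The FPKM of a gene was divided by the median FPKM of the 83 subunits in the same library. Over the 15 libraries the median ratio was 4.93 for Cox8a, 4.22 for Cox4i1, 3.88 for Atp5b (the β subunit of ATP synthase) and 3.09 for Atp5a1 (the α subunit). The lowest levels were those of the 8 tissue-restricted isoforms (0 to 0.0329). The next lowest were Ndufs1 and Ndufa11. Ndufs1, the largest iron-sulphur subunit of complex I, stood at 0.248, and Ndufa11, a membrane subunit of complex I, at 0.165. The low place of Ndufa11 was not matched by low counts. In colon AL it stood at 0.156 and Ndufa5 at 0.661. Yet Ndufa11 had 69.5 to 78.5 CPM in the colon and Ndufa5 58.6 to 65.6, with median transcript lengths of 545 and 595 nt. The lengths behind the deposited FPKM are not given, so the order of genes rests on them. The order depended on the tissue. Uqcrq, a small subunit of complex III, ranged from 1.35 to 6.91 times the median subunit and was the highest of all in the 3 liver libraries (6.21, 5.64 and 6.91), where Cox8a stood at 2.92 to 3.22 and Ndufa4 at 3.89 to 5.80.

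The complexes did not keep one proportion across tissues, and the colon stood apart. The summed counts of complex IV were 1.02 to 1.09 times those of complex I in the 3 colon libraries, 0.630 to 0.685 times in fat, 0.606 to 0.641 times in the hippocampus, 0.598 to 0.613 times in the liver and 0.510 to 0.543 times in the hypothalamus. The hypothalamus was lowest without overlap, while the hippocampus overlapped with liver and with fat. For complex III the ratio to complex I lay between 0.538 and 0.554 in colon libraries, 0.421 and 0.432 in liver libraries, and 0.292 and 0.337 in the other three tissues. The colon was also highest for complex II (0.288 to 0.296 times complex I, against at most 0.274 elsewhere) and complex V (1.62 to 1.68 times, without overlap with another tissue). These ratios need no scaling between libraries. They count Ndufa4 in complex I, although it was later found with complex IV. It was lower in the colon (83.9 to 86.3 CPM) than elsewhere (129 to 682 CPM). The values, the gaps and the order of the tissues therefore depend on its place. Ratios with Ndufa4 in complex IV were not computed. They are given without a test, since the colon was singled out after its values were seen.

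Single members were compared between tissues with the quasi-likelihood test of edgeR over all 15 libraries, each tissue against the mean of the other 4, with diet as a term. Calls needed a fold of at least 2 and an adjusted p (Benjamini-Hochberg) below 0.05. The libraries of a tissue differ in diet and the 5 tissues come from the same mice. With TMM scaling, 77 of 91 members tested were higher in the liver (22.6% of all genes were) and 1 was lower (31.4%). In the hypothalamus 1 was higher (28.5%) and 49 lower (19.3%), in the hippocampus 2 higher (27.1%) and 20 lower (22.3%), in the colon 18 higher (21.5%) and 5 lower (28.5%), and in fat 5 higher (27.8%) and 3 lower (10.8%). These counts depend on how libraries of different tissues are scaled. TMM factors lay between 0.552 and 0.582 for liver libraries and between 1.31 and 1.35 for hypothalamus libraries, and the liver had the most calls that were lost with library totals in their place. With totals the median log2 difference over all genes in the liver moved from -0.33 to -1.36, and that of the members from 1.51 to 0.48. A change of scaling moves all genes of a tissue nearly alike, so the distance between these medians was bound to be similar on either scale.

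The members called under both scalings were 14 higher (11.6% of all genes) and 1 lower (31.4%) in the liver, 13 higher (19.8%) and 5 lower (28.5%) in the colon, 5 higher (27.8%) and 1 lower (6.76%) in fat, 1 higher (28.5%) and 17 lower (12.1%) in the hypothalamus and 2 higher (27.1%) and 10 lower (19.0%) in the hippocampus. Of the 13 higher in the colon, 6 were subunits of complex IV (Cox5a, Cox5b, Cox6a1, Cox7a2, Cox7b, Cox7c) beside the isoform Cox7a1, and 3 were of complex III. Cox7a1, the isoform of heart and skeletal muscle, showed the largest difference in the colon. It had 30.5, 30.7 and 37.5 CPM in the 3 colon libraries and at most 3.67 CPM in the 12 others, with a log2 difference of 4.75 ± 0.30 (SE). It took 14.9% to 18.2% of the FPKM of the Cox7a set in the colon. Cox7a1 was called lower under both scalings in the hippocampus (35, 19 and 21 counts, log2 difference -2.32 ± 0.43) and in the hypothalamus (22, 25 and 21 counts). The colon libraries are part of the mean that each was set against. The other muscle isoform Cox6a2 was lower in the colon (-4.47 ± 1.45), with 4, 1 and 3 counts in AL, DR and DR-AL. Fat AL and DR-AL were as low, at 2 and 0 counts, beside 83 in fat DR. Ndufa4, which was first assigned to complex I and later found with complex IV, was lower in the colon, at 83.9 to 86.3 CPM against 129 to 682 CPM elsewhere.

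Uqcrq was the member with the largest positive difference in the liver, at 336, 453 and 547 CPM in AL, DR and DR-AL against 53.1 to 210 CPM in the other tissues (log2 difference 3.22 ± 0.18 with TMM and 2.19 ± 0.17 with totals). Ndufa6, an accessory subunit of complex I, separated the tissues without overlap of brain and periphery. The colon libraries had 255 to 268 CPM, the liver 193 to 275, fat 106 to 127, the hypothalamus 68.6 to 74.6 and the hippocampus 55.2 to 61.0 CPM, with a log2 difference of -1.56 ± 0.13 for the last. The locus of Atp5s on the minus strand had 12.8 to 13.5 CPM in the hypothalamus and 0.163 to 0.202 CPM in the liver (log2 differences 2.75 ± 0.17 and -3.39 ± 0.28). Its level in fat, colon and hippocampus lay between, at 1.12 to 5.29 CPM. In fat the 2 largest differences were those of Cox6b2 (4.61 ± 0.77), whose locus also holds Fam71e2, and Cox8b (4.31 ± 0.59). Cox8b was lower in the hypothalamus (-5.27 ± 1.00), where it had 2, 3 and 0 counts, beside 7, 10 and 7 in the colon. The values of both isoforms in fat differed widely by diet and are given further on.

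Each diet was then compared with AL within a tissue, with the Z test of the study's methods on the share of counts. Its error is counting error only. Calls needed a log2 fold change of at least 0.32 in size and a p below 0.05 after Benjamini-Hochberg adjustment over the genes with 1 count or more in the tissue. For log2 fold changes, counts were brought to the mean total of the 3 libraries and 0.5 was added. DR and DR-AL share the AL library, so a high or low AL value enters both comparisons and their values are only set side by side.

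In the liver after DR, 41 of 92 members tested were higher than in AL and 1 was lower, where 18.0% of all genes tested were higher and 9.92% lower. The median log2 fold change of the members was 0.29, beside 0.08 over all genes that averaged 10 counts or more. By complex, 18 of 38 members of complex I, 1 of 4 of complex II, 2 of 8 of complex III, 8 of 17 of complex IV and 9 of 15 of complex V were higher. The lower member was Cox6b2, at 14 counts in AL against 2 in DR. With DESeq size factors the counts were 29 higher and 2 lower, and with TMM 27 and 2. With an exact test that allows a coefficient of variation of 0.1 between pools of animals, 7 were higher and 0 lower.

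Atp5g1 rose most in the liver after DR among members that averaged 100 counts or more. It is 1 of 3 genes for the same c subunit of the proton-driven ring of ATP synthase. It had 180 CPM (AL), 319 (DR) and 216 (DR-AL) (log2 fold change in DR 0.82, 95% interval 0.77 to 0.88). Its partners Atp5g2 and Atp5g3 were not called in DR, and Atp5g1 took 17.5% of the FPKM of the 3 genes in AL, 24.9% of it in DR and 17.9% in DR-AL. Ndufc1, a small membrane subunit of complex I, had 33.0, 53.9 and 49.3 CPM (0.71, 0.58 to 0.84). Also higher were Cox8a (0.34), Cox7b (0.45) and, in complex II, Sdhb (0.43), the iron-sulphur subunit that hands electrons on to coenzyme Q. Of complex II the other three genes were not called, with log2 fold changes of -0.16 for Sdha, 0.26 for Sdhc and -0.05 for Sdhd.

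In the liver after DR-AL, 37 of 92 members were higher (15% of all genes) and 6 lower (15.8%), with a median of 0.25 beside -0.02 over all genes. The spread within each complex was wide, and subunits of one complex went in both directions. Among the 75 subunits without the tissue-restricted isoforms the log2 fold changes ran from -0.45 to 1.11, and 60 lay above 0 and 15 below. With the exact test at a coefficient of variation of 0.1, 20 members were higher and 1 lower.

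Atp5l, the g subunit in the membrane part of ATP synthase, had the largest rise among members that averaged 100 counts or more, with 218 CPM (AL), 276 (DR) and 473 (DR-AL) (log2 fold change in DR-AL 1.11, 95% interval 1.07 to 1.16). In the same complex Atp5b had 1267, 1189 and 1136 CPM and Atp5a1 1046, 1001 and 995 CPM, with log2 fold changes of -0.16 and -0.07 in DR-AL that were not called. Thus Atp5l rose while the α and β subunits of the same enzyme were not called. Of all 15 members of complex V, 7 were higher and 0 lower. Ndufb8, an accessory subunit of complex I, had 132, 163 and 253 CPM (0.94, 0.88 to 1.00), and Ndufa4 had 387, 462 and 682 CPM (0.82). At the other end Ndufa10, also of complex I, had 171, 209 and 125 CPM (-0.45, -0.52 to -0.38). It lay above AL in DR and below AL in DR-AL. Atp5sl, which is no ATP synthase subunit in spite of its name, had 44.1, 59.8 and 24.8 CPM (-0.83).

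The members of complex II differed too. Sdhd, which together with Sdhc anchors the complex in the membrane, had 271 CPM (AL), 261 (DR) and 411 (DR-AL) (0.60, called). Sdha, the flavoprotein that oxidises succinate, had 460, 412 and 368 CPM (-0.32), just short of the fold required. Sdhb was at -0.16 and Sdhc at 0.05, neither called. In complex III 4 of 8 members, Uqcr10, Uqcr11, Uqcrh and Uqcrq, rose (0.47 to 0.70), while Uqcrc1, a core subunit, fell by 0.43 on the log2 scale, from 282 CPM in AL to 208 in DR-AL. Uqcrb, Uqcrc2 and Uqcrfs1 were not called (-0.06, 0.05 and 0.18). Cox7a2 (0.41), Cox7b (0.80), Cox8a (0.33) and Atp5g3 (0.37) were also higher.

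**Figure D2:**
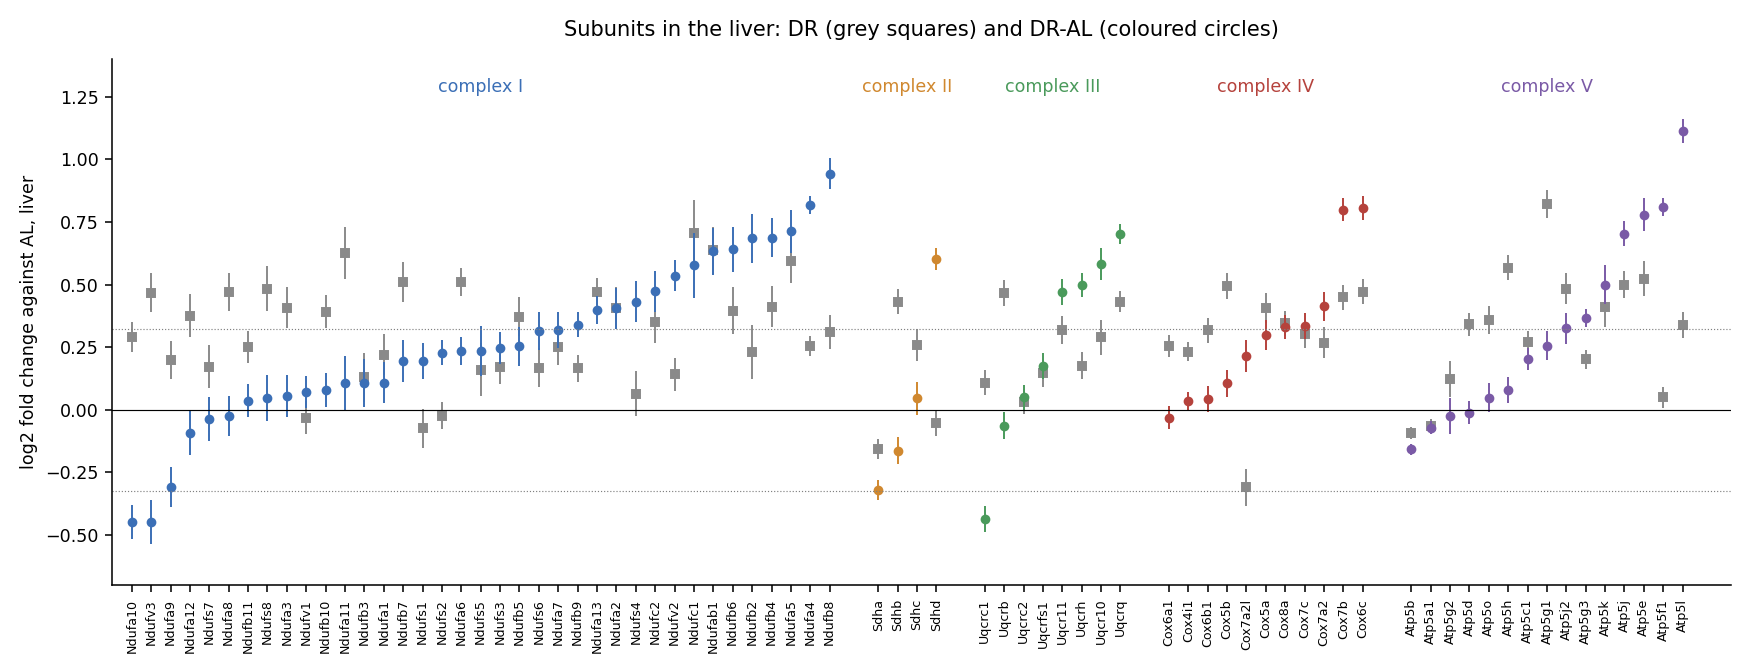
The 75 subunits without tissue-restricted isoforms are ordered by complex and by their DR-AL value (horizontal axis), and the vertical axis is the log2 fold change against AL in the liver, with bars for the 95% interval of counting error. Grey squares are DR, coloured circles DR-AL, and dotted lines mark ±0.32; in every complex some circles lie below 0 and others above 0.59, up to 1.11 for Atp5l.

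The base composition and length of the transcripts moved with the liver values. The members are short, with a median transcript length of 710 nt against 2035 nt over all genes with a length. In DR-AL the median log2 fold change over all genes was 0.21 for transcripts with a GC content under 45% and -0.17 for those of 55% and over, and that of the members was 0.48 (8 members) and 0.09 (24 members) in the same classes. In every GC class the members lay above all genes. In DR the order over all genes was the reverse, 0.00 under 45% and 0.19 at 55% and over. For transcripts under 700 nt, the medians in DR were 0.37 for 43 members and 0.20 for all genes, and in DR-AL 0.33 and 0.10. For 700 to 1500 nt (39 members) they were 0.20 and 0.11 in DR and 0.20 and 0.03 in DR-AL, and for 1500 to 3000 nt (7 members) 0.23 and 0.07 in DR and -0.07 and -0.02 in DR-AL. The part of composition and length in the liver values was not tested.

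Promoters are shown for Atp5l and Ndufb8, which rose most in the liver after DR-AL, for Uqcrc1, which fell, and for a common form and 2 restricted isoforms of complex IV (Cox6a1, Cox8b and Cox7b2), which are described further on. They are the RefSeq sequences on GRCm38.p6 from 250 bases before to 50 bases after the annotated start, read 5′ to 3′ on the strand of the gene. Capitals mark matches to motifs that were searched on both strands. For ETS factors such as GABP the letters were CCGGAAG. For YY1 they were AAGATGGC. For NRF1 they were CATGCGC, its half-site, and the full site, which is the half-site with GCG before it. The positions are chr9:44920693-44920992 (minus strand), chr19:44555393-44555692 (minus strand), chr9:108936398-108936697 (plus strand), chr5:115348909-115349208 (minus strand), chr7:140900397-140900696 (minus strand) and chr5:71548156-71548455 (minus strand).
Atp5l: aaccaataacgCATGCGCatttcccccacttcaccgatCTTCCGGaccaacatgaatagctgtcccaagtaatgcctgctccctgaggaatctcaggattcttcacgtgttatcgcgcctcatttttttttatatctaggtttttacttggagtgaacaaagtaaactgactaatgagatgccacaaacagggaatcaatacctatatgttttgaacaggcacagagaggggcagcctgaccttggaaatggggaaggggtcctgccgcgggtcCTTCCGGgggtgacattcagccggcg
Ndufb8: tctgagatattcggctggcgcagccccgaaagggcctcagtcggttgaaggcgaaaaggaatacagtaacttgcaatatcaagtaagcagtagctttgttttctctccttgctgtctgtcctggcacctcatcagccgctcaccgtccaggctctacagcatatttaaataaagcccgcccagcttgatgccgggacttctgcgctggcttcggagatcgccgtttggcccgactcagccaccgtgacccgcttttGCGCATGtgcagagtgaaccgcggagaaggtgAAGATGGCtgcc
Uqcrc1: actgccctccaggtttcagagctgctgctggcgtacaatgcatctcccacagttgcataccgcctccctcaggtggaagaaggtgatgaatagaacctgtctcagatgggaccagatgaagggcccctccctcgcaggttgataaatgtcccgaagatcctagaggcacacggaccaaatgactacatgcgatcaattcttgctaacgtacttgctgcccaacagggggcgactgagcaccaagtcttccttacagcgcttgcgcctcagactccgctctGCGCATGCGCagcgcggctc
Cox6a1: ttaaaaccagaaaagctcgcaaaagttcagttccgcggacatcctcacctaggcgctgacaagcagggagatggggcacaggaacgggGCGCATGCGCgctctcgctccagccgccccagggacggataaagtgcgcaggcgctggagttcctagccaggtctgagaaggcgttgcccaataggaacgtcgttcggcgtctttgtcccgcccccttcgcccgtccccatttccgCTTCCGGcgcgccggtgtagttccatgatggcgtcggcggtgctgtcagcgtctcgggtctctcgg
Cox8b: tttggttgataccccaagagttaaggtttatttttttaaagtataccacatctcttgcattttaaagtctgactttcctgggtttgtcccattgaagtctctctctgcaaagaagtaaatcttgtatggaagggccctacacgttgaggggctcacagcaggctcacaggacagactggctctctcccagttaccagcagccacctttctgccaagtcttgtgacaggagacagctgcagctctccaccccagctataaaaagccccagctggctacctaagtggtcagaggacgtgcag
Cox7b2: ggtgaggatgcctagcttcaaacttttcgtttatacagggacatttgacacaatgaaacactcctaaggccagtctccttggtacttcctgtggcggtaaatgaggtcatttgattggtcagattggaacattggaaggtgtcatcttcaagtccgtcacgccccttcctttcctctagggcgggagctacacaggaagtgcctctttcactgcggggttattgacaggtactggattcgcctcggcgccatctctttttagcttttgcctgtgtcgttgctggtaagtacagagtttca

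Promoter entries were matched for 76 of the 92 member genes (82 entries). The full NRF1 site was in 8.54% of the member entries and in 0.971% of all 32851 entries. The half-site, which every full site also holds, was in 18.3% and 3.91%, the ETS letters in 20.7% and 8.86%, and the YY1 letters in 14.6% and 2.75%. Atp5l, which rose most in the liver after DR-AL, and Uqcrc1, which fell, both held the NRF1 half-site. Of the 32 matched genes that were higher in the liver after DR-AL, 7 held the half-site. The shown promoters of Cox8b and Cox7b2 had no match, which says only that these letters are not in these windows.

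In fat the direction against AL differed between the DR and the DR-AL library. After DR, 42 of 93 members were higher and 0 lower, but 35.2% of all genes were higher too and 10.4% lower, and the median of the members was 0.30 beside 0.24 over all genes. After DR-AL, 8 members were higher and 51 lower, where 46.0% of all genes were higher and 11.9% lower, and the medians were -0.38 and 0.34. The scaling of the fat libraries moved these numbers. TMM placed the median of all genes at 0.02 in DR and at -0.13 in DR-AL, with 19 members higher and 4 lower in DR and 5 higher and 79 lower in DR-AL. Relative to the median of all genes the members stood at 0.06 in DR and at -0.72 in DR-AL. Totals, TMM and DESeq size factors move all genes of a library nearly alike, so this distance could not differ between them. With FPKM at a pseudocount of 0.1 it was 0.04 in DR and -0.79 in DR-AL. At a pseudocount of 1 it was -0.07 and -1.10. On the deposited FPKM with a pseudocount of 0.1 the median of the members in DR was -0.41 and that of all genes -0.45. With the exact test at a coefficient of variation of 0.1, 20 members were higher in DR and 30 lower in DR-AL, and with the dispersion that edgeR estimated over the 3 fat libraries without regard to diet 0 were higher in DR and 0 lower in DR-AL.

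After DR-AL, complexes II and III were lower as a whole, with 4 of 4 and 8 of 8 members called, beside 19 of 38 of complex I, 8 of 18 of complex IV and 10 of 15 of complex V. The medians were -0.64 for complex II, -0.48 for complex III, -0.41 for complex V, -0.37 for complex IV and -0.32 for complex I. Sdha had 560 CPM (AL), 793 (DR) and 395 (DR-AL), Sdhb 161, 209 and 98.5 CPM, Sdhc 136, 157 and 89.5 CPM, and Sdhd 175, 210 and 110 CPM. All 4 were highest in DR and lowest in DR-AL, and Sdha (0.50) and Sdhb (0.37) were also called higher in DR. Ndufa4 fell most among common subunits after DR-AL, from 292 CPM in AL and 308 in DR to 164 (log2 fold change -0.83, 95% interval -0.89 to -0.78). Atp5b had 1552, 1982 and 1017 CPM (-0.61).

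Some members did not fall in fat after DR-AL. Ndufaf3, an assembly factor of complex I, had 15.4 CPM (AL), 25.4 (DR) and 47.3 (DR-AL), and Ndufaf2, another, had 16.8, 24.7 and 27.2 CPM, both named here after their values were seen. Of the 7 assembly factors of complex I, 2 were called higher and 2 lower in DR-AL. Ndufa4l2, a paralogue of Ndufa4, had 200, 229 and 424 counts (0.39 and 1.02, both called). Cox7a2l, counted here in complex IV as part of the Cox7a set, had a log2 fold change of 0.29 in DR-AL, not called. Atp5g1 was higher in DR (0.59) and not called in DR-AL (0.14), and the other called members of isoform sets were Atp5g3 (0.38 in DR and -0.61 in DR-AL), Cox7b (0.57 and -0.49), Cox7a2 (0.36 in DR), and Cox8a, Cox6a1 and Cox6b1 (-0.62, -0.58 and -0.60 in DR-AL).

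**Figure D3:**
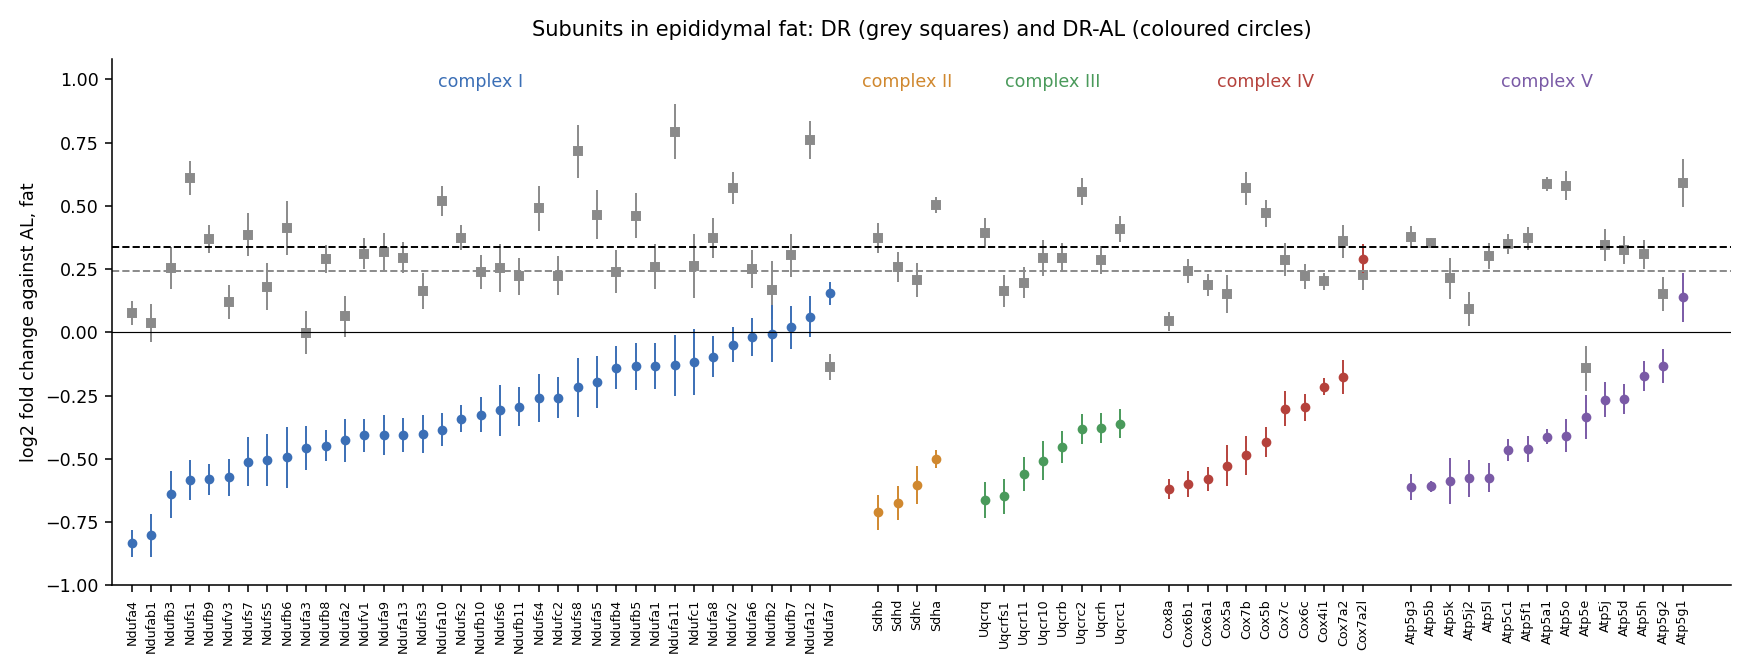
The same 75 subunits in epididymal fat, ordered by complex and DR-AL value (horizontal axis), with the log2 fold change against AL (vertical axis) and bars for the 95% interval of counting error. Grey squares (DR) lie mostly above 0 and coloured circles (DR-AL) mostly below, while the dashed lines, the medians of all genes, are at 0.24 for DR (grey) and 0.34 for DR-AL (black).

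Tissue-restricted isoforms of complex IV are compared here with their common forms and set beside markers of the tissues they are known from. Cox6b2, Cox7b2 and Cox8c, isoforms known from testis, had 27, 0 and 0 counts in fat AL, 551, 87 and 171 in DR and 3661, 507 and 1217 in DR-AL. Taking a count of 0 as up to 3 counts per library, Cox8c was at least 65.5-fold higher in DR and at least 389-fold higher in DR-AL, and Cox7b2 at least 33.3-fold and at least 162-fold. The log2 fold changes of Cox6b2 were 4.52 and 6.99. These isoforms took 16.7% (Cox6b2), 32.3% (Cox7b2) and 14.5% (Cox8c) of the FPKM of their sets in DR-AL, and 0.341%, 0% and 0% in AL. Prm1, a protamine of sperm and 1 of the 9 germ cell markers, had 2, 1437 and 10028 counts in the same libraries, and Cyct, the testis form of cytochrome c, had 0, 40 and 322. In the 12 libraries of other tissues Cox8c had at most 2 counts and Cox7b2 at most 11.

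In the liver the muscle isoforms were higher on both diets than in AL, as were the summed muscle markers. Cox6a2 had 12 (AL), 123 (DR) and 114 (DR-AL) counts in the liver, Cox7a1 had 22, 77 and 90, and Cox8b had 10, 44 and 70, all called higher on both diets (log2 fold changes 3.49 and 3.21, 1.97 and 2.02, and 2.26 and 2.76). Summed skeletal muscle markers in these libraries were 40.1, 207 and 304 CPM, and from DR to DR-AL they went up while Cox6a2 did not. Cox6a2 took 0.118% of the FPKM of Cox6a1 and Cox6a2 in liver AL, 1.15% of it in DR and 1.18% in DR-AL. In fat Cox6a2 had 2, 83 and 0 counts (log2 fold change in DR 5.25, counting interval 3.68 to 8.64), with muscle markers at 115, 641 and 124 CPM. Cox8b in fat had 326, 415 and 87 counts (0.55 and -1.96, both called), and Cox7a1 68, 48 and 35 counts (-1.01 in DR-AL). In DR-AL Cox8b lay below AL, while the muscle markers were at 124 against 115 CPM. Cox8b is also known from brown adipocytes, whose defining gene Ucp1 had 1, 1 and 8 counts. The list of 6 brown adipocyte markers summed to 154, 101 and 136 CPM, with 2 higher and 2 lower in DR and 3 higher and 2 lower in DR-AL.

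The lung isoform Cox4i2 had 53 to 79 counts in fat and at most 29 in any other library, and took at most 0.535% of the FPKM of Cox4i1 and Cox4i2. In the liver it went from 4 counts in AL to 0 in DR-AL, which the Z test called, with a counting interval that includes no change. Ndufa4l2 took 3.95% of the Ndufa4 pair in fat DR-AL and at most 1.34% in the other libraries. In the brain Cox6a2 took 1.32% to 2.65% of its pair, above the colon, where it took at most 0.0252%.

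**Figure D4:**
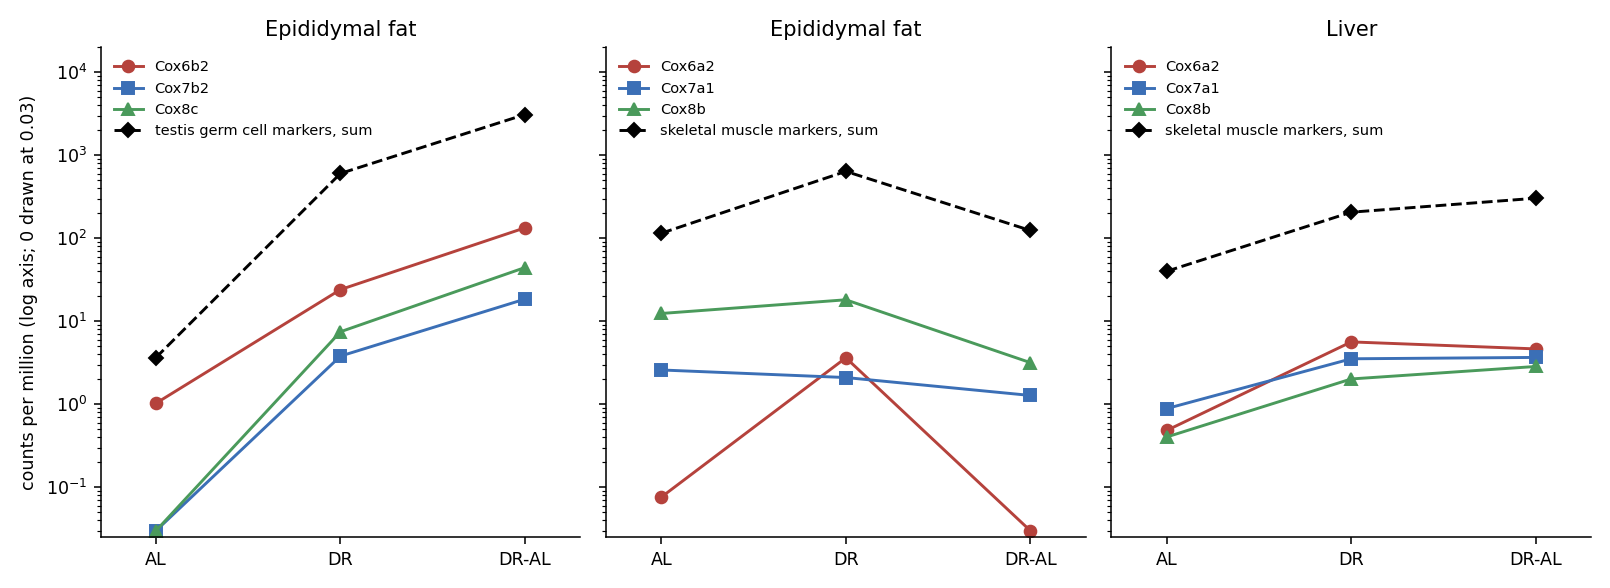
CPM on a log axis (0 drawn at 0.03) for testis isoforms in fat (left), muscle isoforms in fat (middle) and muscle isoforms in the liver (right) in the AL, DR and DR-AL libraries, 1 library per point. The black dashed line is the summed level of 9 germ cell or 8 skeletal muscle markers, which goes from 3.66 to 3104 in fat (left) and from 40.1 to 304 in the liver (right).

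In the colon, 1 of 92 members was higher and 1 lower after DR (9.04% and 10.6% of all genes), and 0 were called after DR-AL, where 5.83% of all genes were higher and 8.50% lower. The medians were 0.04 and -0.01. In DR-AL, 44 members had an unadjusted p under 0.05 in the Z test, without the fold required, and both exact tests of edgeR called 0. After DR, Ndufaf4, an assembly factor of complex I, was higher, at 21.9 CPM (AL), 28.4 (DR) and 26.8 (DR-AL) (0.38), and Atp5sl was lower, at 46.1, 32.1 and 43.5 CPM (-0.52). The 75 common subunits lay within -0.22 and 0.19 in DR and within -0.24 and 0.24 in DR-AL.

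In the hypothalamus, 0 of 92 members were called after DR (4.33% of all genes higher and 2.72% lower), while 40 had an unadjusted p under 0.05 and both exact tests called 0. After DR-AL, 4 were higher (6.06% of all genes) and 0 lower (9.02%). The median was 0.14 beside -0.03 over all genes, and 80 of 92 lay above 0. Marker sums differed between the AL, DR and DR-AL libraries of this tissue. They were 1055, 833 and 756 CPM for hypothalamus, 684, 576 and 455 for hippocampus, and 2775, 3014 and 3393 for neurons. Their part in the members was not tested. Cox5a, a subunit of complex IV, had 82.6 CPM (AL), 92.7 (DR) and 106 (DR-AL) (0.36, 95% interval 0.28 to 0.43), and Ndufaf2 466, 592 and 650 counts (0.41, 0.23 to 0.58). Ndufaf4 and Cox5b were the other two. Size factors or TMM gave 7 calls, and the exact tests 0. In the hippocampus, 0 were higher and 2 lower after DR (1.36% and 2.67% of all genes), namely Cox6a2 with 207, 107 and 101 counts (-0.57) and Cox8b with 51, 16 and 35 counts (-1.27), both restricted isoforms with few counts. After DR-AL 0 were called, where 3.99% of all genes were higher and 2.16% lower, with 36 members at an unadjusted p under 0.05 and 0 calls in both exact tests. The medians were -0.03 and -0.05.

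**Figure D5:**
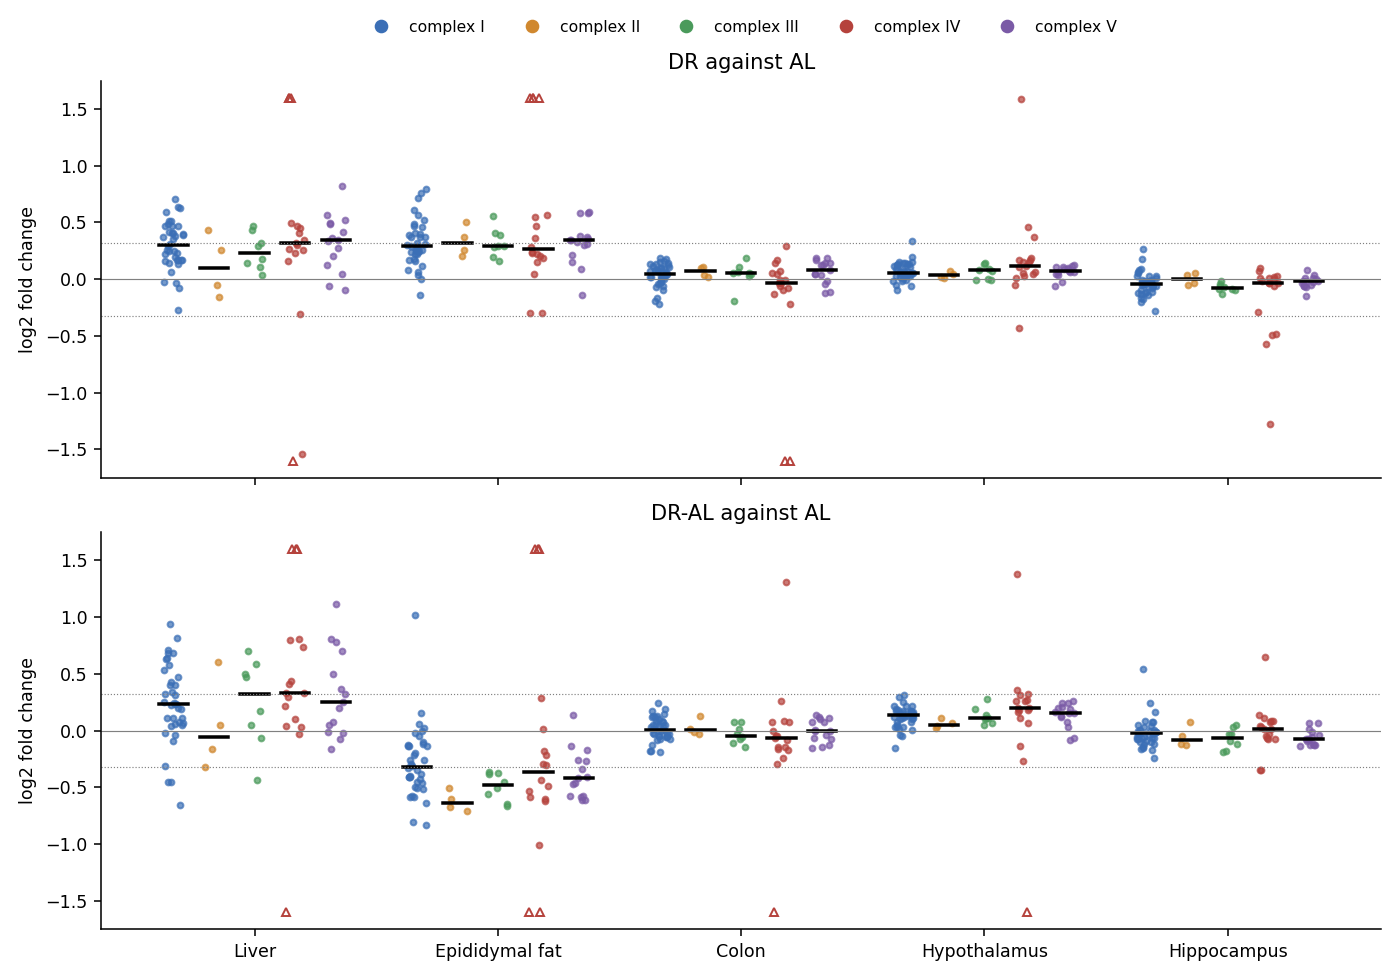
Log2 fold change against AL (vertical axis) of every member of the 5 complexes in the 5 tissues (horizontal axis), for DR (top) and DR-AL (bottom). Points are genes coloured by complex, bars are medians of the complex, open triangles are genes beyond ±1.6 drawn at the edge, and dotted lines mark ±0.32; the medians of DR-AL lie below 0 for all 5 complexes in fat (-0.64 to -0.32) and above 0 for 4 of 5 in the liver.

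A diet effect shared by the 5 tissues was tested over the 15 libraries with edgeR and tissue as a term, so that tissues stand in for replicates although they come from the same mice. For both DR and DR-AL against AL, 0 of 91 members were called and 0 had an unadjusted p under 0.05. Over all 17476 genes tested, 0.0114% were called for DR and 0.00572% for DR-AL. The smallest adjusted p of a member was 1.00 for DR and 0.852 for DR-AL. DESeq2 also called 0 members in both.

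Other genes of the pathway were followed as lists. Their counts are to be read against the shares of all genes given above, which in fat were 35.2% higher and 10.4% lower in DR and 46.0% and 11.9% in DR-AL, and in the liver 18.0% and 9.92% in DR and 15% and 15.8% in DR-AL. Of 12 enzymes of the tricarboxylic acid cycle, which supplies NADH and succinate, 6 rose and 0 fell in fat after DR, and 0 rose and 10 fell after DR-AL (median -0.49). Citrate synthase (Cs) had 10859, 18565 and 7609 counts in AL, DR and DR-AL, and Fh1 fell by 0.74 on the log2 scale in DR-AL. In the liver 2 rose and 4 fell after DR and 3 rose and 3 fell after DR-AL. Of 24 assembly factors of complexes II to V, 10 rose and 1 fell in the liver after DR-AL (median 0.29), among them Pet100, of complex IV, with 439, 497 and 1284 counts, and 4 rose and 3 fell after DR. In fat 6 rose and 1 fell after DR and 3 rose and 5 fell after DR-AL. Cycs, cytochrome c, had 4896, 4979 and 10031 counts in the liver (1.05 in DR-AL) and 3914, 6956 and 4466 in fat (1.03 in DR). Of 12 regulators of mitochondrial biogenesis, 2 rose and 0 fell in fat after DR, and 6 rose and 3 fell after DR-AL, where 6 of 12 is near the share of all genes, with Tfam, which packages mitochondrial DNA, at 801, 775 and 1313 counts and Ppargc1b at 456, 443 and 326. Of 11 genes of coenzyme Q synthesis, 6 rose and 1 fell in fat after DR and 1 rose and 3 fell after DR-AL. Of 7 uncoupling proteins and nucleotide carriers, 3 rose and 1 fell in fat on each diet, which is near the share of all genes. In the liver 2 of the regulators rose and 1 fell after DR and 1 rose and 2 fell after DR-AL, of the coenzyme Q genes 1 rose and 0 fell after DR and 2 rose and 1 fell after DR-AL, and of 6 carriers tested 1 rose and 1 fell after DR and 2 rose and 0 fell after DR-AL. In colon, hypothalamus and hippocampus between 0 and 3 genes of any of these lists were called in either direction. The most were 3 of 12 regulators higher and 0 lower after DR-AL, in the colon and in the hypothalamus. There 5.83% (colon) and 6.06% (hypothalamus) of all genes were higher.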

How the data were processed

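The authors pooled total RNA of 5 mice per tissue and diet, removed ribosomal RNA, kept the strand, sequenced from both ends, trimmed and aligned the reads with Strand software and removed duplicates, as their methods state. The methods name mm10 and the labels mm9, and no position from the table is printed. The authors deposited whole-number counts per locus, not normalized, and FPKM values. The methods state that data were scaled within each tissue to its AL group and quantified with DESeq. They do not say whether or how this was applied to the FPKM. In fat, 1 count was worth 0.694 times the FPKM of AL in DR and 0.313 times in DR-AL, where totals alone would give 1.15 and 0.958. All 30 columns of values were used. Loci with no gene name held between 0.258% and 1.39% of the counts and were left out. The members and all gene lists were chosen with earlier results of these data known.

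The Z test was run on square roots of shares with Poisson variance. Intervals are exact 95% Clopper-Pearson intervals of counting error only, since reads without molecular identifiers are not independent molecules. edgeR 4.0.16 (TMM, filterByExpr, quasi-likelihood with 8 residual degrees of freedom) and DESeq2 1.42.0 were run in R 4.3.3. Transcript length and GC content are medians over protein-coding transcripts of GENCODE M21, matched for 93 of 93 members, and promoters are from RefSeq. Tested on simulated data with genes changed by a fold of 2, the Z test found between 196 and 200 of 200, with 12 to 19 false calls among 16627 to 19940 genes. These data held Poisson error only, as the test assumes, so they do not measure false calls between real pools. The quasi-likelihood test for DR against AL over tissues found 196 of 200, with 5 false calls among 17426 genes. Its simulated spread was smaller than the coefficient of variation of 0.301 fitted to the data, and each change was alike in all tissues. It therefore does not give the power behind the 0 members called for a shared diet effect. Named were, per comparison, the 2 called members with the largest change in each direction and a mean of at least 100 counts, all isoform sets, complex II, and the 2 members per tissue that differ most from other tissues. Examples outside this rule were chosen after their values were seen. They include Atp5b, Atp5a1, Uqcrc1 and the other subunits of complex III in the liver, Ndufaf2, Ndufaf3 and the genes of the level comparison. Of the pathway lists, examples were taken from the 4 with the largest change in a comparison. Alternatives were DESeq size factors, TMM, only genes averaging 10 counts, the edgeR exact test (coefficient of variation set to 0.1, or dispersion estimated within a tissue ignoring diet), FPKM with pseudocounts of 0.1 and 1, DESeq2, no filter, and each tissue or the libraries of each diet left out. Added after the data were seen were library totals between tissues, members with a mean of at least 1000 counts, and members without the 8 restricted isoforms.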

Additional observations from a re-analysis of the deposited data

Results flagged for a closer look

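Complexes III and IV had medians of opposite sign in the 2 tissues with the most calls. After DR-AL, the median log2 fold change of complex III was 0.32 in the liver and -0.48 in epididymal fat, and that of complex IV was 0.33 in the liver and -0.37 in fat, each beyond ±0.32. The sign differed for complex I (0.23 and -0.32) and complex V (0.26 and -0.41) too, without both values beyond this limit. The complex IV medians include the restricted isoforms. Each value rests on 1 library per diet, the difference between the tissues was not tested, and marker sums differed between the same libraries. From AL to DR-AL in fat the germ cell markers went from 3.66 to 3104 CPM, those of the epididymis from 847 to 4834, of liver from 14791 to 4120 and of adipocytes from 52006 to 31603, and in the liver those of skeletal muscle went from 40.1 to 304. Their part in it was not tested. The groups held 1 library each, so that no library could be set against others of its group.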

How the results depend on the processing

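Each value rests on 1 library per diet and tissue, and the spread between animals was not measured. No paired analysis within a tissue was possible because each tissue and diet had 1 pooled library, and the test over tissues had tissue as a term.

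In the liver after DR, the 41 members higher became 27 with TMM, 7 with the exact test at a coefficient of variation of 0.1 and 1 with the estimated dispersion. The 1 lower became 2 with size factors, 2 with TMM, and 0 with either exact test, with members averaging 1000 counts or without restricted isoforms. The median of 0.29 became 0.20 with size factors, 0.20 with TMM, and 0.15 with FPKM at either pseudocount. In the liver after DR-AL, the 37 higher became 20 and 1 with the exact tests, and the 6 lower 1 and 0.

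In fat after DR, the 42 higher became 20 with size factors, 19 with TMM and 20 and 0 with the exact tests, the 0 lower became 3 and 4 with size factors and TMM, and the median of 0.30 became 0.11 and 0.0803. With FPKM it reversed to -0.41 at either pseudocount, where the median of all genes was also below 0 (-0.45 and -0.34 at pseudocounts of 0.1 and 1). In fat after DR-AL, the 8 higher became 5 with TMM, 3 with the estimated dispersion, 1 with members averaging 1000 counts and 4 without restricted isoforms. The 51 lower became 79 with TMM and 30 and 0 with the exact tests, and the median of -0.38 became -0.72, -0.85, -1.97 and -1.94 with size factors, TMM and FPKM with pseudocounts of 0.1 and 1.

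In the colon after DR, the 2 calls became 0 and 0 with the exact tests and 1 with members averaging 1000 counts, and the DR-AL median of -0.01 became 0.0720 and 0.0700 with FPKM at pseudocounts of 0.1 and 1. In the hypothalamus after DR-AL, the 4 calls became 7 with size factors, 7 with TMM, 0 and 0 with the exact tests and 2 with members averaging 1000 counts, and the median of 0.14 became 0.17, 0.17, 0.21 and 0.20 with size factors, TMM and FPKM. In the hippocampus after DR, the 2 calls became 0 with either exact test, with members averaging 1000 counts or without restricted isoforms. FPKM reversed its medians to 0.0667 and 0.0651 in DR and to 0.0236 and 0.0235 in DR-AL at these pseudocounts, below the medians of all genes (0.11 and 0.0884 in DR, 0.13 and 0.0945 in DR-AL).

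Of 57 values of named members, 51 kept their call with size factors and 51 with TMM, and 6 were no longer called in each. With FPKM 20 stayed within their counting interval, 28 kept their direction outside it and 9 reversed, namely Ndufa4l2 (-0.40), Atp5g1 (-0.18), Sdha (-0.22), Atp5g3 (-0.36), Sdhb (-0.37), Cox8b (-0.13), Cox7a2 (-0.35) and Cox7b (-0.0461) in fat after DR and Ndufa4l2 (-0.60) after DR-AL. One count was worth less FPKM in these 2 libraries than in AL.

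Between tissues, library totals gave 14 members higher and 5 lower in the liver, 1 lower in fat, 4 higher and 17 lower in the hypothalamus and 10 lower in the hippocampus. DESeq2 gave 2 lower in the liver and 6 in fat, and size factors in edgeR 6 in fat. Leaving out the libraries of 1 diet gave 1 to 2 lower in the liver, 2 to 9 lower in fat (9 without AL and 6 without DR) and 1 to 2 higher in the hypothalamus. The causes were not tested.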
